A study of Homo sapiens with 9 samples.

Results

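The comparison described here set 3 libraries of FaDu cells labelled AMIGO2 knockdown against 3 libraries of control FaDu cells, across all genes. The 6 libraries were chosen by their labels out of 9 in the series, and the 3 left out were labelled as AMIGO2 knockdown with CAPN2 overexpressed on top. FaDu is an established human cell line from a squamous carcinoma of the hypopharynx. Bulk RNA was sequenced from separate biological replicates, numbered 1 to 3 in each group. The control group carried the genotype label WT and the title normal control, neither group was labelled with a drug treatment, and all 6 libraries shared the FaDu background and growth in serum-containing medium. Neither the knockdown agent nor the number of clones is given in the sources used here. Values in a series of 3 are always in the order of replicates 1, 2 and 3.

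AMIGO2 encodes a membrane protein with leucine-rich repeats and an immunoglobulin domain that takes part in adhesion between cells. CAPN2 encodes the large subunit of calpain-2, a calcium-dependent protease that cuts cytoskeletal and focal adhesion proteins. In squamous carcinoma, adhesion through desmosomes and hemidesmosomes, secreted metalloproteinases and the growth factors that act through the EGF receptor are known to set how the cells attach to and move through matrix.

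AMIGO2 itself (ENSG00000139211, GRCh38 chromosome 12, 47075707 to 47079951, minus strand) was not lower under the knockdown label. It stood at 29.5, 26.1 and 27.2 CPM (counts scaled to library size) in the control libraries and at 24.5, 31.2 and 27.3 CPM in the libraries labelled knockdown, and the groups overlapped. The log2 fold change was 0.01 with an adjusted p of 0.971 in edgeR's quasi-likelihood test, the test behind every adjusted p given here. Its exons overlap those of PCED1B on the other strand, and reads of such partners cannot be told apart without strand. CAPN2 (ENSG00000162909, GRCh38 chromosome 1, 223701593 to 223776018, plus strand) was at 447, 474 and 466 CPM in control and 395, 424 and 435 CPM under the knockdown label (log2 -0.15 ± 0.079 SE, adjusted p = 0.166). Its groups did not overlap, but the difference did not pass the threshold of an adjusted p under 0.05, which it did pass after a correction for GC content and transcript length (log2 -0.19, adjusted p = 0.0273). Because AMIGO2 was not lower, each difference given here is one between libraries named by their labels, and no direction rests on a measured knockdown.

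Libraries held 15158607 to 17730088 counts in control and 16797213 to 19737562 under the knockdown label, so that 3 counts were worth between 0.152 and 0.198 CPM. The median SD of log2(CPM + 0.5) across 10916 genes was 0.0839 among control libraries and 0.166 among libraries labelled knockdown, with the larger SD under the knockdown label for 78.5% of genes. Of 16812 genes tested 34.6% were called, 16.0% higher (4.27% by at least 2-fold) and 18.5% lower (2.34% by at least 2-fold), with a median log2 fold change of -0.01. Among protein-coding genes 17.8% were called higher and 22.0% lower. All control libraries lay on one side of all libraries labelled knockdown for 44.7% of genes. These shares are the background for each count of list members below. A member near 0 in control that passed the filter on low counts through other libraries could hardly be called lower. Where a list holds such members, its counts and median only describe the genes tested. In bulk RNA, fewer cells of a kind and less RNA per cell cannot be told apart.

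**Figure D1:**
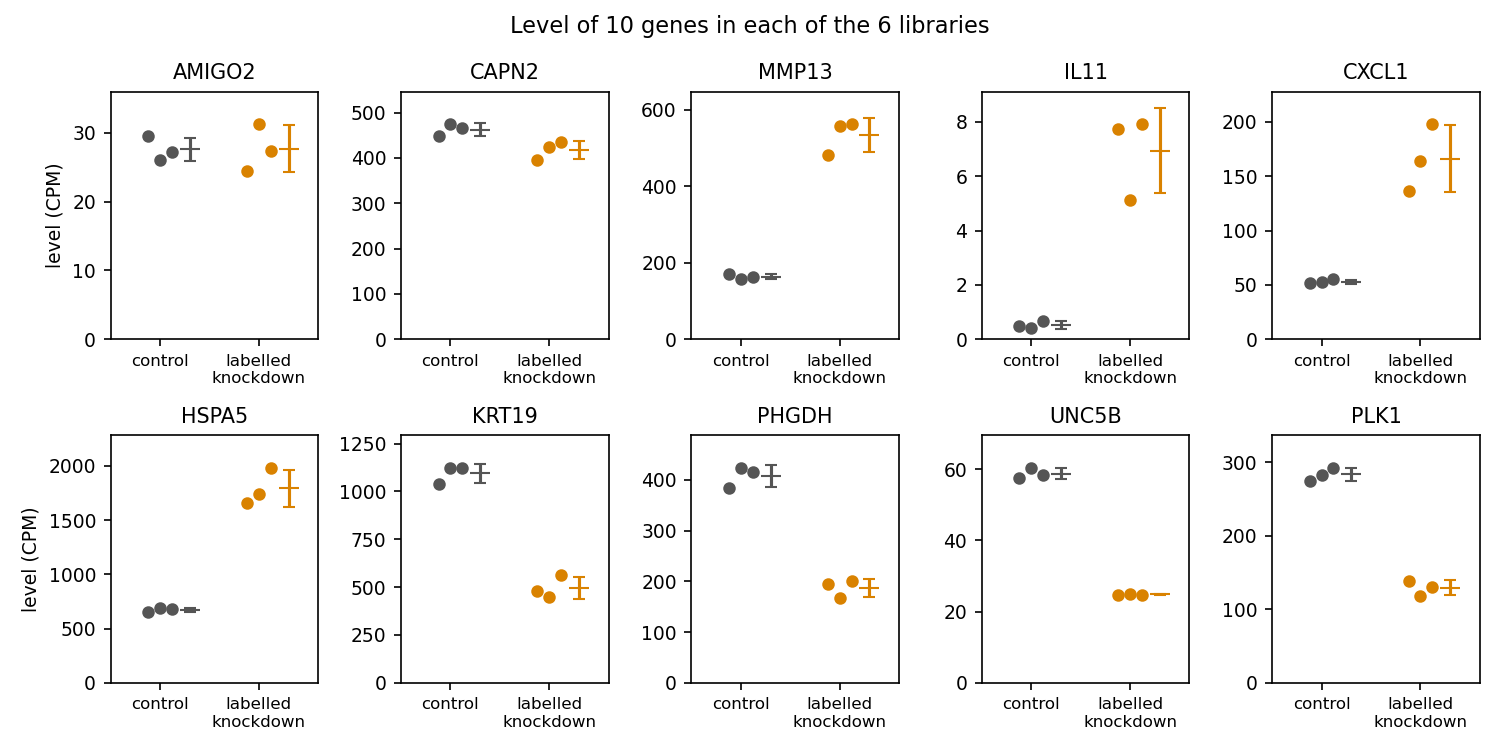
Level in CPM of 10 genes (vertical axes, each starting at 0) in the 3 control libraries (grey) and the 3 libraries labelled knockdown (orange). Points are libraries in replicate order, and the bar beside them is the mean with its SD (n = 3). AMIGO2 overlaps between the groups, and in the other 9 genes every library labelled knockdown lies on one side of the control libraries.

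The labelled cell type was checked against 8 markers of squamous epithelium, all of which were detected. Of them 6 stood lower under the knockdown label, CDH1 (E-cadherin) stood higher and EPCAM (log2 0.14) did not pass the threshold. Their summed level was 6172 to 6506 CPM in control and 2489 to 2981 CPM under the knockdown label, with KRT5 making up most of it. Some defining markers of other cell types held almost no counts and others were called. PTPRC (immune cells) held 1 count in each group, PDGFRA (fibroblasts) 0 counts in either, and KDR (endothelium) 0 counts in either. Of the 14 endothelial markers 4 passed the filter on low counts, with a summed level of 59.97 to 66.55 CPM in control and 77.4 to 96.2 CPM under the knockdown label. Of 12 fibroblast markers 1 passed it, COL1A1, which rose (log2 0.41), and of 14 blood and immune markers 2 did, CD14, which rose (log2 0.49), and ITGAM, which fell (log2 -1.10). These calls were lost without control replicate 1 (COL1A1, CD14), 2 (CD14, ITGAM) or 3 (COL1A1, ITGAM) and without knockdown replicate 1 (COL1A1, CD14) or 3 (CD14, ITGAM). Of 12 neural and neuroendocrine markers 7 passed it, 2 of them higher and 1 lower, with a summed level of 17.45 to 20.85 CPM in control and 37.32 to 48.12 CPM under the knockdown label, most of it from ENO2. Of 8 muscle markers 1 passed it and was called higher, with summed levels of 21.4 to 28.05 and 24.61 to 46.93 CPM and 0 counts for MYOG and MYH2. That gene, TTN, overlapped between the groups and lost its call without control replicate 2 or knockdown replicate 1. Among the neural calls, CHGB was lost without control replicate 1 or 2 or knockdown replicate 1. NCAM1 was lost without control replicate 2 or knockdown replicate 3. The part of cells of these other types in the results was not tested.

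Several genes for secreted matrix metalloproteinases stood above control in the libraries labelled knockdown, and 3 tissue inhibitors rose as well. Of 27 listed metalloproteinases and tissue inhibitors 19 could be tested, of which 11 rose and none fell, with a median log2 fold change of 0.88. Of the 19, 4 had a control mean under 1 CPM and could hardly be called lower. MMP13, which cuts fibrillar collagen, was the most abundant of those that rose, at 171, 157 and 163 CPM in control and 482, 557 and 562 CPM under the knockdown label (log2 1.70 ± 0.088 SE, adjusted p = 7.65e-11). MMP10, a stromelysin, stood at 21.5, 20.7 and 21.3 CPM and 172, 146 and 173 CPM (log2 2.95 ± 0.104 SE, adjusted p = 4.86e-13). For both genes the lowest library labelled knockdown was far above the highest control library. The gelatinase gene MMP2 rose 3.08-fold from 1.72 ± 0.315 to 5.29 ± 0.606 CPM (SD, n = 3), and the matrilysin gene MMP7 rose 2.13-fold. The membrane-bound MMP14, which activates MMP2 at the cell surface, was the most abundant metalloproteinase in control at 404 ± 13.1 CPM and did not pass the threshold (log2 -0.25), although it did without knockdown replicate 1 (log2 -0.37). Among the tissue inhibitors TIMP1 rose 1.83-fold, TIMP2 3.10-fold from 5.33 ± 0.544 to 16.6 ± 1.37 CPM, and TIMP3 1.57-fold.

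Metalloproteinase genes, with genes of other kinds beside them, made up the longest run of neighbouring genes that were called in one direction. From MTMR2 to MMP13 on chromosome 11 (GRCh38, 95832882 to 102955734), 17 of 17 tested protein-coding genes stood higher, with a median log2 fold change of 0.94. The span holds 24 annotated protein-coding genes, and the other 7 had too few counts to test. The rise was 0.30 on the log2 scale for YAP1, a transcriptional coactivator of the Hippo pathway, and 0.38 and 0.65 for the inhibitor of apoptosis genes BIRC3 and BIRC2. Further along it was 0.71 for TMEM123, 1.09 for MMP7, 2.95 for MMP10, 2.78 for MMP1, 4.71 for MMP3, 3.18 for MMP12 and 1.70 for MMP13. DCUN1D5, the next tested gene beyond MMP13, was not called (log2 -0.02). A run was defined as neighbouring tested protein-coding genes with the same call. The 17 of 17 therefore follows from the definition, and the median is one over called genes only. Runs were looked for after the data had been seen, and were described only. There were 47 runs of at least 5 genes, 17 of genes called higher and 30 of genes called lower, and none other than this one and a run of 13 genes on chromosome 4 was longer than 8 genes. Without control replicate 2, 12 of the 17 genes stayed past the threshold, and after the GC and length correction 14 did. BIRC3 was among those lost in both.

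**Figure D2:**
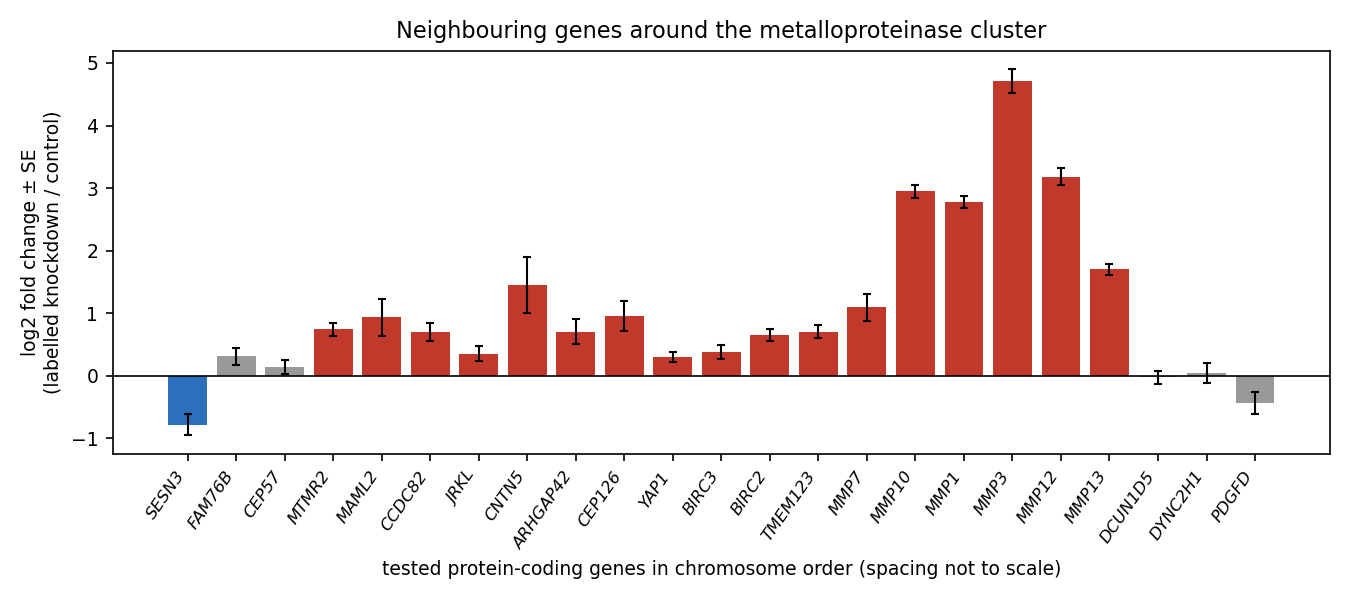
Log2 fold change with its SE (vertical axis) of the 17 genes of the chromosome 11 run and 3 tested genes on either side, in chromosome order. Red bars were called higher, blue lower, and grey did not pass. The tallest bar is MMP3 (4.71), and DCUN1D5, the first gene after MMP13, is near 0 (-0.02).

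Other extracellular proteases and enzymes that build matrix rose in many cases. ADAM19, a membrane-bound metalloprotease, stood at 0.0677, 0.295 and 0.369 CPM in control and 9.09, 7.71 and 7.97 CPM under the knockdown label (log2 5.01 ± 0.308 SE, adjusted p = 9.22e-10), although its exons overlap those of CYFIP2 on the other strand. In the list of ADAM and ADAMTS genes 7 of 19 rose and 1 fell, with a median of 0.23 that was 0.52 with no filter on low counts and 0.37 without control replicate 1 or without knockdown replicate 1. Of these 19, 6 had a control mean under 1 CPM, ADAM19 among them, and could hardly be called lower. Among 13 genes of plasminogen activation and the start of coagulation 7 rose and 3 fell (median 0.78, and 0.36 with no filter on low counts). PLAU, the urokinase that activates plasminogen, rose 1.78-fold from 249 ± 18.5 to 443 ± 29.2 CPM. The plasminogen receptor subunits S100A10 and ANXA2 fell 2.31-fold and 1.34-fold, from 658 ± 31.7 to 286 ± 44.9 CPM and from 1026 ± 39.2 to 768 ± 106 CPM. The groups did not overlap for PLAU, S100A10 or ANXA2.

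Of 19 genes for collagen crosslinking and hydroxylation 8 rose and 3 fell (median 0.43, but 0.20 without control replicate 1 and 0.27 with only the 6 compared libraries). P3H2, a collagen prolyl hydroxylase, rose 4.36-fold, with 23.0, 22.0 and 22.8 CPM in control and 99.7, 99.4 and 96.6 CPM under the knockdown label. P4HA1 rose 2.40-fold and LOXL4 fell 1.56-fold. Among 46 collagens, laminins and matrix glycoproteins 15 rose and 8 fell (median 0.23, and 0.36 without knockdown replicate 3). FN1 (fibronectin) rose 2.79-fold from 8.18 ± 1.13 to 22.8 ± 1.20 CPM. The basement membrane proteoglycan genes HSPG2 and AGRN fell 2.27-fold and 1.63-fold. The count of matrix genes that fell was 5 in place of 8 without control replicate 1 or without knockdown replicate 2. Integrin subunits, the receptors for these proteins, rose in 9 of 20 cases and fell in 3 (median 0.32, but 0.11 without knockdown replicate 1), with ITGB2 up 2.24-fold, ITGA2 up 1.85-fold and ITGA6 up 1.52-fold.

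Cytokine genes of several families rose. Among 27 tested interleukins and colony-stimulating factors 11 rose and 3 fell, with a median of 0.45 (0.27 without knockdown replicate 3). Of the 27, 8 had a control mean under 1 CPM, IL11 among them, and could hardly be called lower. IL11, a cytokine of the IL6 family, stood at 0.473, 0.413 and 0.677 CPM in control and 7.75, 5.13 and 7.91 CPM under the knockdown label (log2 3.71 ± 0.306 SE, adjusted p = 3.62e-08). IL6 rose 5.85-fold from 0.960 ± 0.359 to 5.66 ± 1.36 CPM and LIF 2.28-fold from 36.1 ± 1.55 to 82.3 ± 8.17 CPM. All 3 signal through the gp130 receptor chain. IL1RN and IL36RN, which encode natural antagonists of the IL1 and IL36 receptors, fell 1.51-fold and 1.58-fold. Without control replicate 2 the fall of IL36RN did not pass.

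Chemokines rose in 6 of 11 tested cases and fell in 1, with a median log2 fold change of 1.03. This median was 0.25, 0.66 and 0.57 without control replicates 1, 2 and 3, 0.55, 0.54 and 0.054 without knockdown replicates 1, 2 and 3, and 0.57 with no filter, fits in which more chemokine genes were tested (12 to 23), while 6 rose in each. CXCL1, which attracts neutrophils through CXCR2, was at 51.5, 52.6 and 55.1 CPM in control and 137, 164 and 198 CPM under the knockdown label (log2 1.65 ± 0.111 SE, adjusted p = 2.86e-09). CXCL2 and CXCL3, its close paralogs, were at 4.19, 4.36 and 3.88 CPM and 2.37, 2.24 and 2.65 CPM in control and at 11.6, 12.1 and 12.4 CPM and 7.81, 7.81 and 10.6 CPM under the knockdown label. None of the 3 overlapped between the groups, but these copies are so similar that their reads can be assigned to one another. CCL20, which attracts CCR6-bearing lymphocytes, rose from 9.11 ± 0.859 to 18.7 ± 3.98 CPM. CCL5 fell 1.38-fold, a call lost under 5 of 14 alternatives, among them the fits without control replicate 1 or 2 or without knockdown replicate 2. The NF-kB subunit and feedback genes, which act upstream of chemokine genes, included 6 of 23 called higher and 10 called lower. Their median of -0.15 was 0.075 after the GC and length correction (0.043 with the replicate block as well), -0.048 without knockdown replicate 2 and -0.23 without knockdown replicate 1. NFKBIZ rose 1.78-fold while BCL3 and RELB fell 1.85-fold and 1.75-fold.

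The promoters of the CXCL genes are shown because they hold one and the same run of bases. Promoters here are the 250 bases before the annotated start in RefSeq (GRCh38.p14), which were found for 10697 tested protein-coding genes, and motifs were searched on both strands. The NF-kB consensus motif was found in 6 of 8 chemokine promoters, against 6.06% of all 10697. It was in 5.47% of promoters of genes called higher and in 6.02% of those of genes called lower. In capitals, 2 overlapping matches starting 79 bases before the start of CXCL1 (chr4:73869143-73869392, plus strand) and CXCL3 (chr4:74038690-74038939, minus strand) and 78 before that of CXCL2 (chr4:74099196-74099445, minus strand) are marked.
CXCL1: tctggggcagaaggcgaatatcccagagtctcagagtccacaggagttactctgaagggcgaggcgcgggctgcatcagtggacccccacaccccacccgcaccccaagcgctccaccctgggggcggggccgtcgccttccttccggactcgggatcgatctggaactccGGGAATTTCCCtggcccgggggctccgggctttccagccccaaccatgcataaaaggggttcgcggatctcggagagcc
CXCL2: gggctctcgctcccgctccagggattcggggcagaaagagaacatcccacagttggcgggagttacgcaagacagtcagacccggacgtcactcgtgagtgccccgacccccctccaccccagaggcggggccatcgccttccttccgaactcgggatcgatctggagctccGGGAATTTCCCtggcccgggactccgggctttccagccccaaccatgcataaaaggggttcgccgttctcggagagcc
CXCL3: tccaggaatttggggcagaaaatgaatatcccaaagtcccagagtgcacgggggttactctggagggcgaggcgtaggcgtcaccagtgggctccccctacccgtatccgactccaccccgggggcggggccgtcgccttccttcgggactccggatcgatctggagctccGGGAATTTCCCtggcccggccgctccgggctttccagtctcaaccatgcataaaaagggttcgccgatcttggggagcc
All 3 show the same marked bases, GGGAATTTCCC. Of the 6 chemokine genes with a match 4 rose (CCL20, CXCL1, CXCL2 and CXCL3), and CCL22 and CXCL11 did not pass. CXCL1, CXCL2 and CXCL3 are close paralogs whose printed promoters are alike beyond the marked bases, so their matches are not independent. The gene for CXCL8, which also rose, has no exact match to the consensus in its window.

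The CXCL genes lie next to genes of the EGF family on chromosome 4, in the second longest run. From RASSF6 to THAP6 (GRCh38, 73571550 to 75550473) 13 of 13 tested protein-coding genes stood higher, with a median of 1.46. Besides CXCL8, CXCL1, CXCL3 and CXCL2 and the genes at its ends the run held MTHFD2L, the growth factor genes EPGN, EREG, AREG and BTC, and PARM1 and RCHY1. AREG (amphiregulin) stood at 62.6, 64.4 and 61.8 CPM in control and 153, 162 and 206 CPM under the knockdown label (log2 1.46 ± 0.104 SE, adjusted p = 5.05e-09). Its neighbour EREG (epiregulin) was the more abundant ligand in control, at 200 ± 8.37 CPM, and rose 1.303-fold, which did not pass after the GC and length correction. PARM1 rose from 1.67 ± 0.278 to 4.68 ± 0.269 CPM. Without control replicate 2, and likewise after the GC and length correction, 8 of the 13 genes stayed past the threshold. BTC lost its call under 11 of 14 alternatives, among them the fits without any one of control replicates 1, 2 and 3 and knockdown replicates 2 and 3. The 13 of 13 follows from the definition of a run, and the median only describes the run. These genes were named after their values had been seen.

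Several ligands of the EGF family stood higher. Of 15 tested ligands, receptors and regulators of the family 7 rose and 2 fell (median 0.38, and 0.25 with the replicate block and the GC and length correction). The 2 that fell were EGFR, the gene of the EGF receptor itself, and the ligand gene NRG4 (log2 -0.47, not past the threshold without control replicate 3). HBEGF rose 2.48-fold and TGFA 2.02-fold, both without overlap of the groups, as did the feedback inhibitor ERRFI1 (2.36-fold, from 56.8 ± 1.12 to 134 ± 4.63 CPM). The receptor gene ERBB3 was not called (log2 0.27), but it passed under 8 of 14 alternatives, the fits without knockdown replicate 2 (log2 0.34) or 3 (log2 0.35) among them. Of 28 MAPK feedback phosphatases and ETS factors 13 rose and 3 fell (median 0.15). DUSP10, a phosphatase of p38 and JNK, was at 3.86, 3.12 and 3.26 CPM in control and 15.0, 15.2 and 15.8 CPM under the knockdown label. DUSP1 rose 2.74-fold and IER3 2.44-fold, while ETV5 and ETV4, transcription factors downstream of ERK, fell 2.06-fold and 1.498-fold. Exons of ETV4 overlap DHX8 on the other strand.

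Of 40 TGF-beta, activin and BMP genes 10 rose and 2 fell (median 0.22, and 0.14 after the GC and length correction). Of the 40, 5 had a control mean under 1 CPM, INHBA among them, and could hardly be called lower. INHBA, the subunit of activin A, stood at 0.0677, 0.589 and 0.246 CPM in control and 7.22, 5.87 and 6.09 CPM under the knockdown label (log2 4.33 ± 0.384 SE, adjusted p = 9.53e-08), and the activin-binding antagonist FST rose 2.56-fold from 34.1 ± 2.89 to 87.3 ± 7.44 CPM. BMP2 rose 2.98-fold and its receptor BMPR2 fell 1.70-fold. ID1, a target of BMP signalling, fell 1.45-fold. SMAD4, the mediator shared by these pathways, held 0 counts in the 3 control libraries together and 1 count in the 3 labelled knockdown.

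The AP-1 factors are known to bind promoters of metalloproteinase and cytokine genes. Of 11 tested 4 rose and none fell (median 0.14, but 0.32 after the GC and length correction, 0.043 without knockdown replicate 1 and 0.23 without knockdown replicate 2), with JUN up 1.45-fold, MAFF 1.54-fold and ATF3 1.33-fold. FOSL1, the most abundant at 244 ± 9.54 CPM in control, was at 239 ± 58.5 CPM under the knockdown label. The AP-1 site TGAGTCA was found in 2.57% of the 10697 promoters. It was in 3.44% of 1918 promoters of genes called higher and 1.94% of 2377 promoters of genes called lower. At a change of at least 2-fold it was in 6.45% of 403 promoters of genes at least 2-fold higher. Of 223 promoters of genes at least 2-fold lower 2 held it (0.897%). The median GC content of these promoters was 62% and 64.4%, against 64.8% over all. In the list of metalloproteinases and tissue inhibitors only 9 promoters were found, of which 1 held the site. No promoter was found for MMP1, MMP3, MMP12 and MMP13, which all rose, so the site was not searched for in these genes.

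Chaperones of the endoplasmic reticulum (ER) stood higher as a group, while genes of amino acid supply stood lower. Both are known as outputs of the unfolded protein response, the first through ATF6 and XBP1 and the second through ATF4. Of 56 tested genes of ER folding and ER-associated degradation 29 rose and 4 fell, with a median log2 fold change of 0.27. Their summed level was 9509 to 9773 CPM in control and 12770 to 13910 CPM under the knockdown label. HSPA5 (BiP, the main ER chaperone) was at 655, 686 and 677 CPM in control and 1657, 1737 and 1983 CPM under the knockdown label (log2 1.42 ± 0.089 SE, adjusted p = 1.15e-09). CALR, the calcium-binding chaperone calreticulin, was at 375, 401 and 389.5 CPM and 874, 730.1 and 868 CPM (log2 1.08 ± 0.091 SE, adjusted p = 5.05e-08). Neither gene overlapped between the groups. The co-chaperone genes DNAJB9 and DNAJC3 rose 2.70-fold and 1.94-fold, the secreted factors MANF and CRELD2 1.90-fold and 1.92-fold, and the oxidase ERO1A 1.71-fold from 164 ± 12.9 to 280 ± 25.1 CPM. Exons of DNAJB9 overlap PNPLA8 and THAP5, and those of CRELD2 overlap ALG12, on the other strand. OS9, a lectin of ER-associated degradation, fell 1.52-fold. CANX and XBP1 did not pass (log2 0.12 and 0.11).

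Promoters of 3 chaperone genes are printed because a rare element is found in them. The ER stress element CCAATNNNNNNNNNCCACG, searched on both strands, was in 14 of the 10697 promoters (0.131%). Of those 14 genes 8 were called higher and none lower. The 8 were CALR, CRELD2, EIF2A, ERO1B, FICD, HSP90B1, HSPA5 and SERP1. The 6 that did not pass were ALG12, CANX, TMEM120A, TRIM5, XBP1 and ZNF17. The genes are not independent, since ALG12 and CRELD2 share 295 bases of promoter window and EIF2A and SERP1 share 210. In capitals, the element starts 66 bases before the start of HSPA5 (chr9:125241344-125241593, minus strand) and 225 before that of CALR (chr19:12938359-12938608, plus strand). HSP90B1 (chr12:103930160-103930409, plus strand) holds it in both orientations, 194 and 89 bases before the start.
HSPA5: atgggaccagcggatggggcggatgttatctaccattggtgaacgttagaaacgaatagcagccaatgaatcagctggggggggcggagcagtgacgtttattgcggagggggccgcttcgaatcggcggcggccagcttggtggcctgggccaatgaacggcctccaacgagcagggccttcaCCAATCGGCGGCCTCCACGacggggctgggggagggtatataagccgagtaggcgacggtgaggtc
HSP90B1: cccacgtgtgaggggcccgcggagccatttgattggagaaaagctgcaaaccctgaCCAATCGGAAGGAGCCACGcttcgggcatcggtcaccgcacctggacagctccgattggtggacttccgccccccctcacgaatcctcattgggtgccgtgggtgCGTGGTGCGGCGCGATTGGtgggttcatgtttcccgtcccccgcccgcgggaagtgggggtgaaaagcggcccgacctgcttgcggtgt
CALR: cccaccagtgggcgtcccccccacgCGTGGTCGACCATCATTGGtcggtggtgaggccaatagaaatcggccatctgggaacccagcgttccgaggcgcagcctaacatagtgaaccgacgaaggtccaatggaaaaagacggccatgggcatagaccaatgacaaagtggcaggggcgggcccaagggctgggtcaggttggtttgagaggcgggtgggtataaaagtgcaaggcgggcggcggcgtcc
Those 3 genes rose 2.67-fold, 2.53-fold and 2.12-fold.

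Of the integrated stress response factors and feedback genes 8 of 29 rose and 12 fell (median -0.15, and -0.25 without knockdown replicate 3). ATF4, the central activator, stood at 562, 595 and 559 CPM in control and 421, 355 and 455 CPM under the knockdown label (log2 -0.48 ± 0.096 SE, adjusted p = 0.000772). Its targets CHAC1 and SESN2 fell 2.31-fold and 2.14-fold, and JDP2, which encodes a repressor of the AP-1 family, fell 2.62-fold from 78.7 ± 3.60 to 30.2 ± 8.502 CPM. DDIT3 (CHOP), also an ATF4 target, rose 1.93-fold, but its exons overlap those of 2 genes on the other strand. GDF15 rose 1.70-fold.

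Amino acid genes were lower in all 3 of the lists that cover them. Enzymes of amino acid synthesis and one-carbon metabolism fell in 20 of 36 cases and rose in 3 (median -0.31). In the serine pathway PHGDH stood at 384, 424 and 417 CPM in control and 194, 168 and 201 CPM under the knockdown label (log2 -1.12 ± 0.091 SE, adjusted p = 2.88e-08), PSAT1 fell 1.85-fold, PSPH 1.45-fold and SHMT2 1.47-fold. These enzymes make serine from a glycolytic intermediate and, with SHMT2, glycine from serine in mitochondria. ALDH1L2, a mitochondrial folate enzyme, fell 3.05-fold and the glutamine synthetase gene GLUL 1.61-fold. Exons of ALDH1L2 overlap C12orf45 on the other strand. Amino acid transporters fell in 13 of 23 cases and rose in 1 (median -0.45). SLC1A4, which carries alanine, serine and cysteine, was at 32.3, 38.0 and 39.5 CPM in control and 12.5, 13.49 and 12.8 CPM under the knockdown label (log2 -1.50 ± 0.106 SE, adjusted p = 5.05e-09). SLC7A5, the abundant leucine carrier, fell 1.53-fold from 1828 ± 81.9 to 1198 ± 94.1 CPM. The exception was the glutamine carrier SLC38A2, which rose 1.64-fold from 362 ± 20.7 to 595 ± 77.9 CPM. Cytosolic tRNA synthetases fell in 10 of 23 cases and rose in none (median -0.11, but -0.041 and -0.065 without knockdown replicates 1 and 2, -0.069 with upper-quartile scaling and -0.18 after the GC and length correction), with MARS, VARS and AARS down 1.54-fold, 1.57-fold and 1.53-fold.

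The ATF4 element TGATGNAA was found in 1.43% of the 10697 promoters. It was in 4 of 24 promoters of the amino acid synthesis list and in 1 of 19 promoters of the transporter list. Among genes called higher 1.82% of promoters held it, and among those called lower 1.43%. Of the 4 genes of the synthesis list ASNS, GOT1 and MTHFD1L fell and BCAT1 did not pass. The difference between the lists depended on the window. With 300 bases before the start, 4 of 24 promoters of the synthesis list and 4 of 19 of the transporter list held the element. Of all 10697 promoters 1.73% held it in that longer window. The promoter of ASNS, asparagine synthetase (chr7:97872409-97872658, minus strand), is printed as the best known example, with the match in capitals 68 bases before the start.
ASNS: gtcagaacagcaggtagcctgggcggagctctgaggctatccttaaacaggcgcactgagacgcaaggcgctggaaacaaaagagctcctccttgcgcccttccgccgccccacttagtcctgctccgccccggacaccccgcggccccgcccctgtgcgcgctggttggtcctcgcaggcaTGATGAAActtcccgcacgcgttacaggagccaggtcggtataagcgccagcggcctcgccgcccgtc
ASNS itself stood at 11.2, 11.4 and 9.96 CPM in control and 6.76, 6.57 and 5.45 CPM under the knockdown label (log2 -0.79 ± 0.135 SE, adjusted p = 0.000181).

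**Figure D3:**
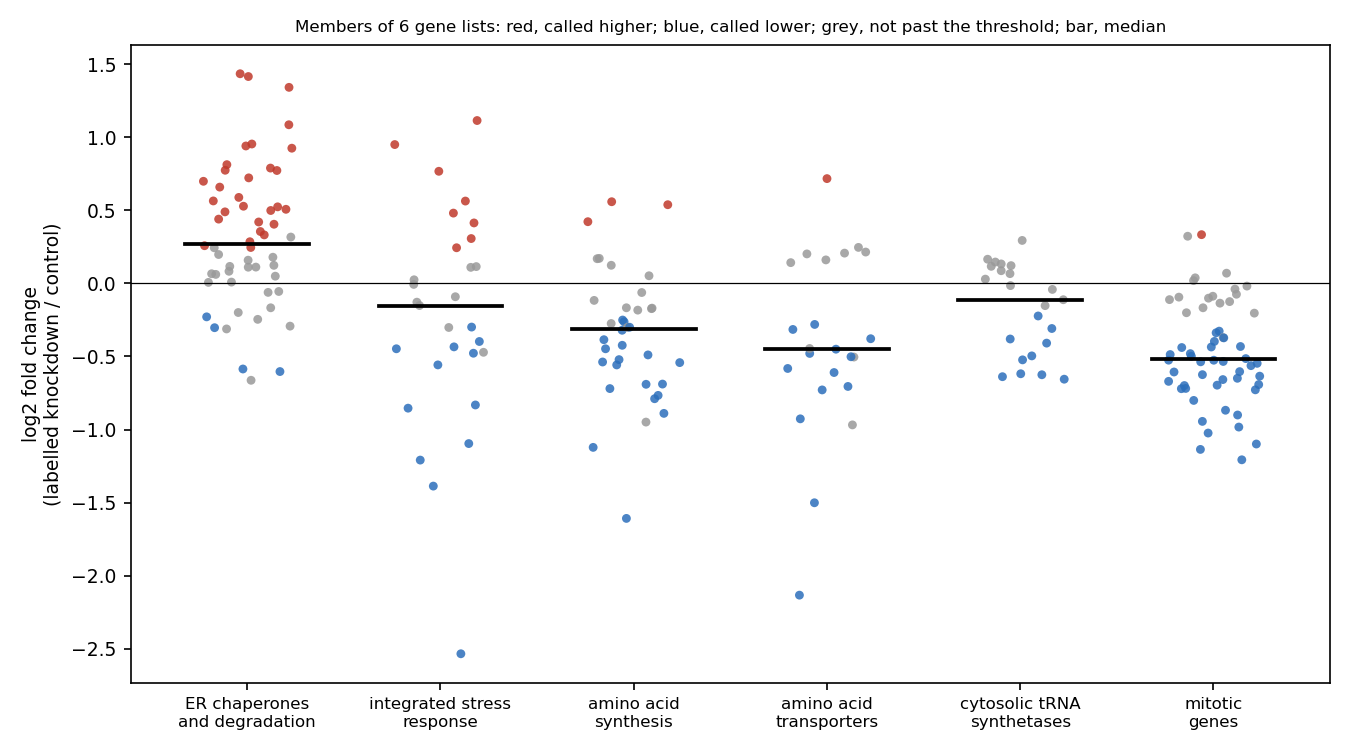
Log2 fold change (vertical axis) of every tested member of 6 lists, 1 point per gene with random sideways spread, red where called higher, blue where called lower and grey where not past the threshold, with the list's median as a bar. ER chaperones have their median above 0 (0.27), and the amino acid and mitotic lists have theirs below 0.

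Epithelial structural genes stood lower under the knockdown label. Of 24 tested keratins 12 fell and 3 rose (median -0.35, and -0.53 without knockdown replicate 3), and the summed level of the list was 9485 to 10210 CPM in control and 4895 to 6363 CPM under the knockdown label. KRT19, a keratin of simple and basal epithelium, was at 1039, 1124 and 1121 CPM in control and 479.5, 449 and 561 CPM under the knockdown label (log2 -1.14 ± 0.097 SE, adjusted p = 5.64e-08). KRT15, a basal keratin, was at 115 ± 6.58 CPM and 28.6 ± 2.47 CPM (SD, n = 3; log2 -2.01 ± 0.113 SE, adjusted p = 2.32e-10), and KRT14, the partner of KRT5 in basal cells, fell 2.10-fold. KRT17 and KRT8, which were also abundant, did not pass (log2 0.17 and -0.19), the second overlapping KRT18 on the other strand. KRT17 passed as higher after the GC and length correction (log2 0.39) and without knockdown replicate 2 (log2 0.34). The 3 that rose, KRT81, KRT23 and KRT34, were at 5.66 ± 1.13, 1.02 ± 0.385 and 0.847 ± 0.0901 CPM under the knockdown label. KRT34 was lost without any one of control replicates 1, 2 and 3 or knockdown replicates 2 and 3, and KRT23 without knockdown replicate 3.

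Of 20 components of desmosomes and hemidesmosomes 11 fell and 4 rose (median -0.53, and -0.29 after the GC and length correction). DSP, the desmoplakin that anchors keratin to the desmosome, stood at 1151, 1113 and 1120 CPM in control and 696, 689 and 532 CPM under the knockdown label (log2 -0.82 ± 0.097 SE, adjusted p = 3.56e-06). PKP1 fell 2.00-fold, PERP 1.67-fold and JUP (plakoglobin) 1.45-fold. Among the cadherins of the desmosome, DSG3 and DSC3, the forms of stratified epithelium, both fell 1.52-fold. DSG2 and DSC2, the forms also found in simple epithelium, rose 1.26-fold and 1.27-fold, calls that the GC and length correction ended. DSG2 was also lost without control replicate 2 or knockdown replicate 2. ITGB4 of the hemidesmosome fell 1.45-fold while its partner ITGA6 rose 1.52-fold.

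Transcription factors of the squamous lineage fell in 11 of 26 cases and rose in 6 (median -0.13, but -0.058 without knockdown replicate 2, -0.084 with upper-quartile scaling and -0.077 with no filter). ZNF750, which drives late differentiation, was at 22.0, 24.6 and 24.97 CPM in control and 10.9, 9.16 and 9.84 CPM under the knockdown label (log2 -1.26 ± 0.129 SE, adjusted p = 6.13e-07). PAX9 fell 1.56-fold, KLF4 1.71-fold and TP63, the master factor of the lineage, 1.31-fold. SOX9 and KLF5 rose 1.95-fold and 1.40-fold. Of 23 late differentiation genes of the cornified envelope 7 were called higher and 6 lower. Their median of 0.058 turned in sign without control replicate 1 (-0.0044) or 3 (-0.050) and without knockdown replicate 1 (-0.20) or 3 (-0.12), and was 0.12 after the GC and length correction and 0.15 and 0.17 without control replicate 2 and knockdown replicate 2. PI3 (elafin) and S100A9 rose 5.74-fold and 2.68-fold, and HRNR and TGM1 fell 3.47-fold and 1.78-fold. Clade B serpins and cystatins, inhibitors of proteases, rose in 9 of 16 cases and fell in 2 (median 0.53), with CST6 at 3.92, 4.07 and 5.78 CPM in control and 28.2, 24.7 and 33.4 CPM under the knockdown label.

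Of 22 factors and markers of mesenchymal transition 9 rose and 1 fell (median 0.20). CDH2 (N-cadherin) stood at 3.58, 4.71 and 4.24 CPM in control and 13.9, 19.6 and 15.8 CPM under the knockdown label (log2 1.97 ± 0.162 SE, adjusted p = 3.36e-08), and CDH11 rose from 0.172 ± 0.146 to 2.13 ± 0.0725 CPM. CDH1 (E-cadherin), usually lost in such a transition, was at 375, 380.2 and 387 CPM and 453, 481 and 429.9 CPM (log2 0.26 ± 0.080 SE, adjusted p = 0.0181), and its rise did not pass without any one of the control libraries. CDH5, the cadherin of endothelium, was at 17.0, 15.3 and 12.2 CPM and 46.4, 40.7 and 42.5 CPM (log2 1.54 ± 0.122 SE, adjusted p = 2.13e-08), while KDR was at 0 counts, PECAM1 at 1 and 8 counts, and VWF fell 2.32-fold. The part of endothelial cells in this result was not tested.

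Of 45 ephrins, semaphorins, netrins and their receptors, which guide axons and cells, 14 rose and 10 fell (median -0.15, but 0.076 after the GC and length correction and -0.027 without knockdown replicate 2). The share that fell, 22.2%, was close to the 22.0% of all protein-coding genes. Secreted ligands were among the rises: NTN4 (netrin 4) was at 12.8, 9.61 and 10.6 CPM in control and 39.0, 46.0 and 46.3 CPM under the knockdown label (log2 2.00 ± 0.126 SE, adjusted p = 1.15e-09), and SEMA3A and SEMA3C rose 3.21-fold and 2.16-fold. NRP1 and NRP2, the neuropilins that bind class 3 semaphorins, rose 2.28-fold and 2.92-fold. UNC5B, a netrin receptor, was at 57.5, 60.4 and 58.3 CPM in control and 24.8, 24.9 and 24.7 CPM under the knockdown label (log2 -1.24 ± 0.087 SE, adjusted p = 4.18e-09), with no overlap. NEO1, another netrin receptor, fell 1.69-fold, EPHB2 1.53-fold and SEMA3F 1.40-fold.

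Mitotic genes stood lower. Of 57 mitotic kinases, checkpoint and kinetochore genes 39 fell and 1 rose (median -0.51). PLK1, the polo-like kinase of mitosis, was at 275, 283 and 292 CPM in control and 138, 118 and 131 CPM under the knockdown label (log2 -1.14 ± 0.086 SE, adjusted p = 1.26e-08). CDC20, the activator of the anaphase-promoting complex, was at 427, 464 and 460.5 CPM and 232, 201 and 232 CPM (log2 -1.02 ± 0.088 SE, adjusted p = 6.56e-08). FOXM1, which drives transcription of such genes, fell 2.14-fold, although its exons overlap those of ITFG2 on the other strand, and AURKA fell 1.92-fold. CENPK, the 1 gene called higher (log2 0.33), was lost under 8 of 14 alternatives, among them the fits without control replicate 1, 2 or 3 and without knockdown replicate 2 or 3. After the GC and length correction more were called, 48 of the 57 lower and none higher. Among 33 kinesins 12 fell and 6 rose (median -0.16, but -0.088 without control replicate 3, -0.091 and -0.042 without knockdown replicates 1 and 3 and -0.34 after the GC and length correction). The mitotic motors KIF18B and KIFC1 fell 2.25-fold and 1.69-fold, and KIF3A, a motor of cilia, rose 1.63-fold.

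Promoters of mitotic genes are shown for the cell cycle homology region (CHR), which is known to bind the complexes that time these genes in the cell cycle. Its sequence TTTGAA, on either strand, was in 20 of 43 promoters of the mitotic list and in 8.43% of all 10697. It was in 8.75% of promoters of genes called lower and in 9.70% of those called higher. Of the 20 mitotic genes with a match 16 fell and 4 did not pass. In capitals, a match starts 29 bases before the start of PLK1 (chr16:23678639-23678888, plus strand), 178 and 65 bases before that of CDC20 (chr1:43358731-43358980, plus strand) and 10 bases before that of INCENP (chr11:62123761-62124010, plus strand).
PLK1: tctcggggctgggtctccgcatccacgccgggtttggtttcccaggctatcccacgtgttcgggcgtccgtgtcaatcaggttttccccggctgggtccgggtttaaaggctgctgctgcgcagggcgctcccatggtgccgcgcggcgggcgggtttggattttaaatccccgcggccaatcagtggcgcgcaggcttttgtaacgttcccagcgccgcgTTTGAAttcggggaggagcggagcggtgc
CDC20: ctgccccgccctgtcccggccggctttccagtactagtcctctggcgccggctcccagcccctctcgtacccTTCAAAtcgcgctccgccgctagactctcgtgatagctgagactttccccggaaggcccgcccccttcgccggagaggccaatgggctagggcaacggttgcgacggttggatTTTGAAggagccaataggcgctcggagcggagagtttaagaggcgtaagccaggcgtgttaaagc
INCENP: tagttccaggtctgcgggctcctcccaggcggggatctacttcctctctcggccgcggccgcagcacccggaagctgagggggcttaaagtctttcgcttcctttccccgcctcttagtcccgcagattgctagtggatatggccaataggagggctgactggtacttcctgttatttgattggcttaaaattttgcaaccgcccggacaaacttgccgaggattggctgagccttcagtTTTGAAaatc
INCENP, the inner centromere scaffold of Aurora B, fell 2.31-fold, from 204 ± 2.05 to 88.3 ± 21.6 CPM.

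Genes of DNA replication and of the cell cycle engine were counted separately. Of 52 genes of replication origins and forks 20 fell and 3 rose (median -0.14, and -0.087 without knockdown replicate 1). RPA1, which binds single-stranded DNA, was at 248, 269 and 274 CPM in control and 114, 117 and 123 CPM under the knockdown label (log2 -1.16 ± 0.083 SE, adjusted p = 5.3e-09), while the helicase gene MCM6 rose 1.18-fold, a call lost without control replicate 1, 2 or 3. Exons of RPA1 overlap SMYD4 on the other strand. Without control replicate 2 the count of falls was 12, with only the 6 compared libraries it was 13, and without knockdown replicate 1 the count of rises was 9. Among cyclins, E2F factors and CDK inhibitors 13 of 33 fell and 1 rose (median -0.24, but -0.086 with 3 rises after the GC and length correction and -0.16 without knockdown replicate 2). CCND1 fell 1.49-fold from 1527 ± 30.1 to 1028 ± 40.3 CPM and CCND2 1.70-fold, and the 1 that rose was the CDK inhibitor CDKN1A (p21), up 1.35-fold. CCND1 overlaps LTO1 on the other strand. Of 23 nuclear lamina and envelope genes 10 fell and 4 rose (median -0.29). LMNB1 (lamin B1) was at 366, 383 and 380.3 CPM in control and 102, 102 and 121 CPM under the knockdown label (log2 -1.80 ± 0.088 SE, adjusted p = 3.78e-11), and SUN2 fell 1.87-fold while SUN1 rose 1.22-fold, a call lost without control replicate 1. Exons of SUN2 overlap GTPBP1 on the other strand.

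**Figure D4:**
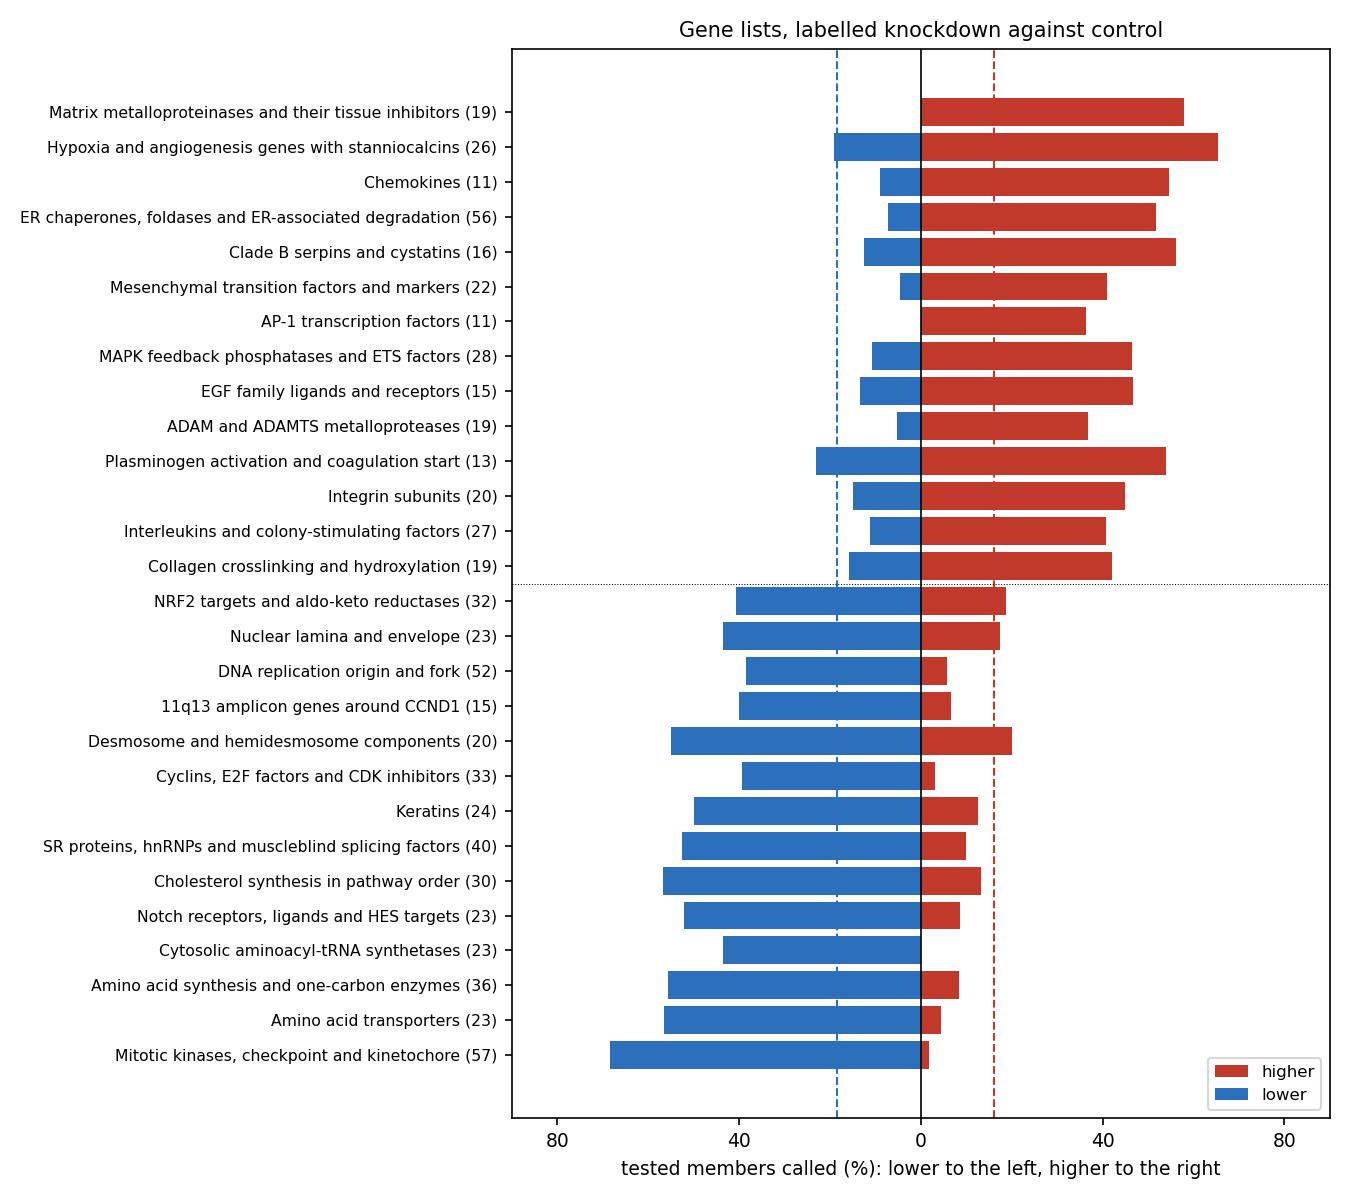
Percent of tested members called higher (red, right) and lower (blue, left) for the 14 lists with the largest excess of higher calls and the 14 with the largest excess of lower calls, among lists with at least 10 tested members, whose number is in brackets. Dashed lines mark the shares among all genes tested, 16.0% and 18.5%. Metalloproteinases (57.9% higher) are at the top and mitotic genes (68.4% lower) at the bottom.

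Lipid synthesis genes stood lower in many cases. Of 30 genes of cholesterol synthesis and its control 17 fell and 4 rose (median -0.34, but -0.19 with 2 rises after the GC and length correction and -0.23 without knockdown replicate 2). DHCR7, which catalyses the last step, was at 186, 189.6 and 195 CPM in control and 124, 110.5 and 107 CPM under the knockdown label (log2 -0.74 ± 0.091 SE, adjusted p = 5.78e-06), and MVK fell 1.77-fold. SREBF1, a master regulator of lipid synthesis, fell 1.53-fold. Exons of MVK and SREBF1 overlap those of MMAB and RAI1 on the other strand. The cholesterol exporter gene ABCA1 rose 1.86-fold. Among 25 genes of fatty acid synthesis and desaturation 10 fell and 6 rose (median -0.15). SCD fell 1.89-fold and ACLY 1.71-fold, and ELOVL6 rose 2.04-fold.

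Of 26 genes of hypoxia and angiogenesis 17 rose and 5 fell (median 0.54). HIF1A, the oxygen-controlled activator, rose from 171 ± 21.4 to 270 ± 43.9 CPM, NDRG1 from 372 ± 8.40 to 627 ± 24.8 CPM and PLOD2, a collagen lysyl hydroxylase, 2.35-fold. The stanniocalcin genes moved apart: STC1 stood at 4.60, 5.48 and 4.74 CPM in control and 49.0, 56.9 and 42.4 CPM under the knockdown label, and STC2 at 169, 190.1 and 169 CPM and 115, 107 and 98.2 CPM (log2 -0.72 ± 0.088 SE, adjusted p = 5.04e-06). VEGFC rose 2.09-fold while VEGFB fell 1.73-fold. VEGFA and DDIT4 were also called lower. The call of VEGFA was lost under 3 alternatives, among them the fit without control replicate 2, and that of DDIT4 under 9. Counts of falls in this list were 2 or 3 in place of 5 under 7 alternatives, among them upper-quartile scaling and the fit without control replicate 1, 2 or 3. Of 30 genes of glycolysis and lactate 10 rose and 4 fell (median 0.14, and 0.085 without knockdown replicate 3). ENO2 rose 2.71-fold and PDK1 1.86-fold, and the abundant ENO1 and PKM fell 1.34-fold and 1.26-fold. The fall of PKM did not pass after the GC and length correction.

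Of 23 Notch receptors, ligands and targets 12 fell and 2 rose (median -0.37). HES2, a listed member of the HES family, stood at 7.10, 6.90 and 8.24 CPM in control and 0.641, 0.846 and 1.35 CPM under the knockdown label (log2 -2.97 ± 0.253 SE, adjusted p = 5.64e-08). NRARP, a feedback target, was at 256, 276 and 259.5 CPM and 158, 108 and 131 CPM, the receptor genes NOTCH1 and NOTCH3 fell 1.84-fold and 1.65-fold, and the ligand gene DLL1 fell 1.86-fold. RBPJ, the DNA-binding partner of the receptors, rose 1.36-fold. Of 37 Wnt ligands, inhibitors and targets 11 fell and 5 rose, and 8 rose after the GC and length correction. The median of -0.11 was between -0.066 and -0.072 without control replicate 1 or 2, without knockdown replicate 2, with only the 6 compared libraries or with upper-quartile scaling. WNT4 was at 23.7, 25.1 and 25.4 CPM in control and 9.55, 8.91 and 9.84 CPM under the knockdown label (log2 -1.39 ± 0.119 SE, adjusted p = 5.82e-08), and the inhibitor gene DKK3 fell 3.11-fold while DKK1 rose 1.66-fold.

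Of 29 YAP and TAZ targets 13 rose and 8 fell (median 0.096, and 0.17 without knockdown replicate 3 and 0.21 after the GC and length correction), with 5 or 4 falls after the GC and length correction or without knockdown replicate 2. IGFBP3 was at 87.7, 101 and 95.8 CPM in control and 319.5, 304 and 348 CPM under the knockdown label (log2 1.77 ± 0.089 SE, adjusted p = 5.8e-11), and NT5E, the ectonucleotidase CD73, rose 5.14-fold from 7.39 ± 1.13 to 38.1 ± 2.14 CPM. The receptor kinase gene AXL rose 2.56-fold, and PTPN14, an inhibitor of YAP, fell 1.49-fold. In the list of calpains and calpastatin 2 of 12 rose and 4 fell (median -0.26, but -0.15 without control replicate 2, -0.082 with only the 6 compared libraries, -0.17 without knockdown replicate 2 and -0.12 with no filter). CAPN1, the large subunit of calpain-1, was at 451, 488 and 480.0 CPM in control and 302, 249.8 and 283 CPM under the knockdown label (log2 -0.77 ± 0.088 SE, adjusted p = 2.66e-06). The other genes called lower each lost their call at least once: CAPNS2 under 4 alternatives, CAPN15 under 3 and CAPN11 without control replicate 2. Of AMIGO and other leucine-rich repeat adhesion genes, 11 of 25 were tested, of which FLRT2 fell 1.69-fold and SLITRK6 rose from 0.169 ± 0.0447 to 0.877 ± 0.205 CPM.

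Splicing factors stood lower in many cases. SR proteins, hnRNPs and muscleblind factors fell in 21 of 40 cases and rose in 4 (median -0.28), with PTBP1 down 1.55-fold from 732 ± 20.8 to 471 ± 36.5 CPM and its paralog PTBP2 up 1.49-fold. The rise of PTBP2 did not pass after the GC and length correction. MBNL3 was at 44.2, 33.1 and 46.0 CPM in control and 13.1, 15.3 and 9.61 CPM under the knockdown label (log2 -1.69 ± 0.151 SE, adjusted p = 1.09e-07). Metallothioneins, which bind zinc and copper, rose in 3 of 5 tested cases and fell in none (median 0.58). MT2A had the largest gain in mean CPM among protein-coding genes called higher, from 712, 768 and 740.1 to 1635, 2061 and 2510, and the libraries labelled knockdown differed more among themselves than those of control. Of 38 heat shock chaperones 8 were called higher and 10 lower, shares close to those over all protein-coding genes, and the median lay between -0.084 and 0.040 over the 14 alternatives. HSPB8 rose 6.06-fold and HSPB1 and its partner BAG3 fell 1.81-fold and 1.67-fold. NRF2 targets, a response to oxidants, fell in 13 of 32 cases and rose in 6 (median -0.20, and -0.31 without knockdown replicate 3), with TKT down 1.64-fold and TXN up 1.46-fold, of which TXN did not pass after the GC and length correction.

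Long non-coding RNAs were called higher in 10.5% and lower in 5.50% of 2219 genes. MANCR, a non-coding RNA known from mitosis, stood at 0.541, 0.295 and 0.308 CPM in control and 4.19, 4.28 and 4.28 CPM under the knockdown label, and LINC00707 at 0.676, 0.766 and 0.800 CPM and 5.53, 8.36 and 7.21 CPM. HOXD-AS2 was at 9.54, 9.61 and 7.07 CPM and 4.89, 1.64 and 2.87 CPM (log2 -1.49 ± 0.264 SE, adjusted p = 0.000266). Their groups did not overlap. In the mitochondrial genome, ribosomal RNA took 0.557 ± 0.0233% of counts in control and 0.954 ± 0.114% under the knockdown label (SD, n = 3, 2-sided exact permutation p = 0.1, the smallest that 3 against 3 can give), and messenger RNA took 5.18 ± 0.209% and 5.72 ± 0.688% (exact p = 0.4).

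Calls followed the GC content of genes. Among the 3361 genes with the lowest exon GC content (up to 42.0%) 30.0% were higher and 5.56% lower, and among the 3361 with the highest (from 58.0%) 6.78% were higher and 34.3% lower. By chromosome, 7.97% of genes were higher and 28.8% lower on chromosome 19, and 23.8% were higher and 10.3% lower on chromosome 4. The correction for GC content and length, which sets this trend to 0, changed which genes were called. It called 6201 genes, among them 4617 of the 5812 in the same direction and none in the opposite one. The cause of the trend was not tested.

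**Figure D5:**
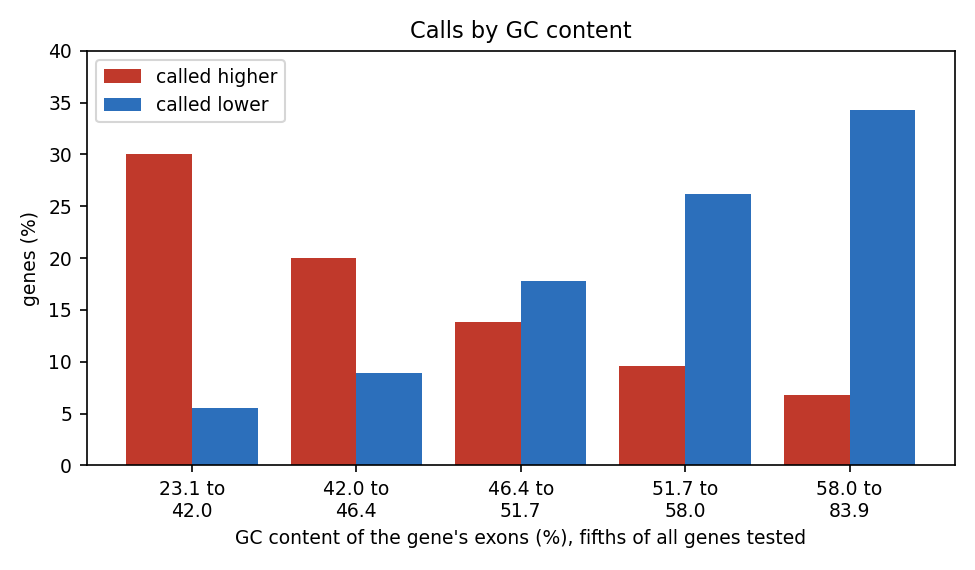
Percent of genes called higher (red) and lower (blue) in 5 equal bins of the 16802 genes with a GC value, from the lowest exon GC content to the highest. Higher calls drop from 30.0% to 6.78% from left to right and lower calls climb from 5.56% to 34.3%.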

How the data were processed

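The deposited table holds whole-number counts for 58735 genes in 9 libraries of total RNA. Per the submitters' processing notes, the authors used HISAT2 2.0.5, StringTie 1.3.3b, featureCounts 1.5.0-p3 and build hg19, with no role given, while the coordinates in the table equal GENCODE v29 on GRCh38 for all 58735 identifiers. Per the labels, libraries were made with a NEBNext Ultra kit, and whether counting used strand is not given in the sources used here.

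Genes were filtered with filterByExpr in edgeR 4.0.16 (R 4.3.3, minimum count 10), scaled by TMM and fitted with the robust quasi-likelihood model over all 9 libraries, which share 1 estimate of spread. P-values were adjusted over 16812 genes by Benjamini-Hochberg, with calls at an adjusted p under 0.05. SE was the log2 fold change divided by the root of the F statistic. Levels are TMM-scaled CPM. Levels of 3 counts or fewer are within counting error of 0.

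The members and gene lists were chosen with earlier results of these data known. Named genes were the largest changes by fold (20 each way) and in CPM (10 each way), 5 long non-coding genes each way, up to 4 members per list and direction of lowest adjusted p, and others where their role called for it. Runs of neighbouring genes were looked for after their values were seen. Alternatives were other scalings, DESeq2 1.42.0, no filter, the 6 libraries alone, a replicate block, a loess correction for GC content and length, and each library left out. The fitting code was tested on simulated data. P-values measure the spread between cultures of 1 cell line.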

Additional observations from a re-analysis of the deposited data

How the results depend on the processing

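The number of genes called was 5812, and between 4288 and 6427 when each library was left out in turn. With upper-quartile scaling 53.9% of calls were higher, against 46.4% with TMM, and no gene was called in opposite directions. Replicate numbers did not pair the samples (correlations of -0.0078, -0.11 and -0.0015 for the same number), and the fit with the replicate block called 5376 genes, 5319 of them shared. Among 399 named genes that were called, 330 kept their call and direction under each of 14 alternatives and 69 lost it at least once. AMIGO2 changed sign with the GC and length correction (-0.0893 on the log2 scale, and -0.0874 with the replicate block as well) and ranged from -0.0616 to 0.0904 without 1 library, never past the threshold. CAPN2 passed as lower with the same corrections (-0.187, and -0.189 with the block). CENPK changed sign there too (-0.00759 and -0.0077).

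The other changes of sign were in genes not past the threshold. With the GC and length correction, alone and with the replicate block, ALG12 was at 0.0676 and 0.0608, BCAT1 at -0.0409 and -0.0407 and FOSL1 at 0.165 and 0.158. With upper-quartile scaling CXCL11 was at 0.0369, DCUN1D5 at 0.0194 and FOSL1 at 0.0176. With no filter CXCL11 was at 0.0176 and DCUN1D5 at 0.00086, and with the 6 libraries alone DCUN1D5 was at 0.00401 and FOSL1 at 0.000913. CXCL11 was at 0.00422 with RLE scaling and 0.00539 in DESeq2. Without 1 library CXCL11 ranged from -0.322 to 0.571, DCUN1D5 from -0.155 to 0.0702 and FOSL1 from -0.22 to 0.164. The cause of these differences was not tested. Genes at a few counts, such as CXCL11, are limited by depth.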

Other observations

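A family outside the lists formed another run of genes called in one direction. From CEACAM1 to PSG9 on chromosome 19 (GRCh38, 42507304 to 43269530) 6 of 6 tested protein-coding genes stood higher, with a median log2 fold change of 2.78. Of these, 5 encode pregnancy-specific glycoproteins, secreted members of the carcinoembryonic antigen family made by the placenta. PSG9 was at 0.338, 0.0589 and 0.0615 CPM in control and 1.51, 2.34 and 2.17 CPM under the knockdown label (adjusted p = 3.18e-05), and PSG1 at 0.0677, 0.530 and 0.123 CPM and 1.69, 2.24 and 1.52 CPM (adjusted p = 0.000416). PSG4, PSG5 and PSG6 were at 1.02 ± 0.184, 0.857 ± 0.187 and 0.991 ± 0.212 CPM under the knockdown label and at most 0.236 CPM in any control library. The groups did not overlap for any of the 5. These genes are near-identical copies, so their reads can be assigned to one another, and their levels were low. With so few counts in control, the 5 passed the filter on low counts through other libraries. A tested copy could thus hardly be called lower, and the 6 of 6 and the median only describe the run. Genes of the span with too few counts to test were not counted. All 6 passed under 11 of the 14 alternatives and 5 passed without control replicate 2, without control replicate 3 and without knockdown replicate 3. CEACAM6, of the same family, rose from 1.298 ± 0.310 to 6.18 ± 1.51 CPM. The run was chosen after its values had been seen.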
